A study of Mus musculus with 16 samples.

Results

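*Csf2rb*, *Csf2rb2*, *Epor* and *Kit* encode receptors that carry cytokine signals into blood-forming cells. They were followed as 4 genes among the 29453 of the matrix, and were chosen by their summed transcript counts, in which *Csf2rb* and *Csf2rb2* were lower in *Stat3* null than in wild-type (WT) erythroid cells of chimeric mouse embryos. That contrast is therefore described below without a test. Tests are given for other cell types and for the change between stages.

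The product of *Csf2rb*, the beta common chain, has no ligand of its own. It pairs with the alpha chains of the receptors for GM-CSF, interleukin-3 and interleukin-5 and passes the signal to the kinase JAK2 and to STAT5. *Csf2rb2*, a gene present in mice through duplication, encodes a sister chain that pairs with the interleukin-3 receptor alpha chain. *Epor* encodes the erythropoietin receptor, which also acts through JAK2 and STAT5 and sustains red cell precursors. *Kit* encodes the receptor tyrosine kinase for stem cell factor, a marker of early blood progenitors that is also expressed in melanoblasts, germ cells and several epithelia. Primitive red cells arise from the yolk sac, and a later wave of erythro-myeloid progenitors (EMP) gives rise to megakaryocytes, definitive red cells and myeloid cells.

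Null cells derived from embryonic stem cells (ESCs) in which internal coding exons of *Stat3* had been replaced by a neomycin resistance gene. The line was derived on the CD1 stock, given a tdTomato reporter by transfection with puromycin selection, and grown from picked colonies. It was injected into WT CD1 blastocysts, so that every embryo held WT host cells and null donor cells side by side. Embryos were taken at 3 stages, in days of embryonic development (E7.5, then E8.5, then E9.5), pooled at the first 2, dissociated, and sorted into tdTomato-positive cells (null) and tdTomato-negative cells (WT). Each genotype had 2 libraries at E7.5, 2 at E8.5 and 4 at E9.5. All null cells came from cultured donor ESCs and all WT cells from the host embryo, so the *Stat3* genotype and the donor origin cannot be told apart. No WT ESC donor was analysed here.

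Transcripts were counted by unique molecular identifiers (UMIs). Once called doublets were set aside, together with tdTomato UMI-bearing cells of the WT sort, 37841 of 41832 cells remained, with 360 to 4327 cells and 20682659 to 138613245 UMIs per library. The median cell of a library held 18205 to 57791.5 UMIs. Libraries of a group are called A to D, which is a name and not a pairing. WT libraries C and D of E9.5 shared 292 cell barcodes, against 8 for the next pair of libraries, and 3.42% of these barcodes carried the same cell type in both. Where a value without the shared barcodes is given, it is named as such. Levels are UMIs of the gene per 1000000 UMIs of the library in that cell type (CPM), and errors are SD over libraries.

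In the GRCm38 annotation *Csf2rb2* (ENSMUSG00000071714.7) lies on the minus strand at chr15:78282507-78305721 and *Csf2rb* (ENSMUSG00000071713.6) on the plus strand at chr15:78325752-78353847. They stand head to head, with 20030 bases between their starts. Each holds 1 miRNA gene, *Mir7676-1* in *Csf2rb2* and *Mir7676-2* in *Csf2rb*, on its own strand. *Epor* (ENSMUSG00000006235.6) is at chr9:21958897-21963506 on the minus strand, and *Kit* (ENSMUSG00000005672.12) at chr5:75574916-75656722 on the plus strand. For each gene 1 protein-coding transcript was compared, of 4764 bases for *Csf2rb* and 4740 bases for *Csf2rb2*. They were identical at 91.7% of aligned bases, and at 82.4% over their last 300 bases, where a 3′ library takes its reads. Of the windows of 91 bases in *Csf2rb*, 8.28% were also in *Csf2rb2*, and 0 of those in its last 500 bases were. Reads of the pair are thus largely separable at the 3′ end, but their split by the authors' counting is uncertain elsewhere.

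The promoters are shown because STAT and GATA factors are known to act in blood cells. RefSeq promoters (GRCm38.p6) were found for 3 of 4 members, all but *Csf2rb*, so the beta chain pair was not compared. The 150 bases before the start site are printed 5′ to 3′ on the strand of the gene. Capitals mark the STAT-type motif TTCNNNGAA and the GATA-type motif GATAA, read on both strands, so that TTATC is GATAA on the opposite strand.
Csf2rb2, chr15:78305722-78305871, minus strand: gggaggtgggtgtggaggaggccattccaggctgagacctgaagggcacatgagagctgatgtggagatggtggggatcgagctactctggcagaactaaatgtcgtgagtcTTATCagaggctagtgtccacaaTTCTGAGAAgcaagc
Epor, chr9:21963577-21963726, minus strand: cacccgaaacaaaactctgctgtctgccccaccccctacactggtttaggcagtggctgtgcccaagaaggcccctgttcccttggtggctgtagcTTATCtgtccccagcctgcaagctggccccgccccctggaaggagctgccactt
Kit, chr5:75574837-75574986, plus strand: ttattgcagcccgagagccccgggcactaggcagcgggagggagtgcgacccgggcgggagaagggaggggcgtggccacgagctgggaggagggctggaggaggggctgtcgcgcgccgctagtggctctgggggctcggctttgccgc
The *Csf2rb2* promoter held both motifs, starting at positions -15 (TTCTGAGAA) and -38 (TTATC) from the start site, and the matches did not overlap. The *Epor* promoter held TTATC at position -54, and the *Kit* promoter held neither motif. Among 32851 RefSeq promoters of 300 bases, TTCNNNGAA occurred in 8.30% and GATAA in 25.4%. A match is a run of letters and not a bound site.

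In Erythroid cells of E8.5, both beta chain genes were lower in null than in WT cells, while *Epor* was not. *Csf2rb* gave 1450 UMIs (76.5 CPM) in 426 cells of WT library A and 1253 UMIs (76.6 CPM) in 622 cells of WT library B. In null cells it gave 87 UMIs (3.54 CPM) in 594 cells of library A and 6 UMIs (1.19 CPM) in 131 cells of library B. The WT libraries were nearly equal and both null libraries lay far below them, at means of 76.6 ± 0.0737 and 2.37 ± 1.66 CPM (SD, n = 2 each), a ratio of 32.4. Without null library A this ratio was 64.2, and without null library B it was 21.6.

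*Csf2rb2* was about an order of magnitude rarer than *Csf2rb* in WT Erythroid cells, as UMIs of the 3′ end. It gave 178 UMIs (9.39 CPM) in WT A and 124 (7.58 CPM) in WT B, against 5 (0.203 CPM) in null A and 0 in null B, where a count of 0 allows up to 0.596 CPM. Its groups did not overlap either (8.49 ± 1.28 against 0.102 ± 0.144 CPM). These values chose the genes and carry no test. Among 9317 genes with a mean of at least 1 CPM, the 2 null levels were under the 2 WT levels for 11.5%, and the fit over all 10143 tested genes called 0.0887% of them in either direction.

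*Epor* gave 1675 UMIs (88.4 CPM) and 1485 (90.8 CPM) in the WT libraries and 2335 (94.96 CPM) and 604 (120.0 CPM) in the null libraries. Both null libraries lay above both WT libraries, which held for 13.5% of genes, and the means were 107.5 ± 17.7 and 89.6 ± 1.71 CPM. *Kit* was nearly off in Erythroid cells of both genotypes, at 0.897 and 5.20 CPM in WT A and B and 2.60 and 5.96 CPM in null A and B, with overlapping groups. Within the same cells the beta chain pair was thus lower and the erythropoietin receptor was not.

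**Figure D1:**
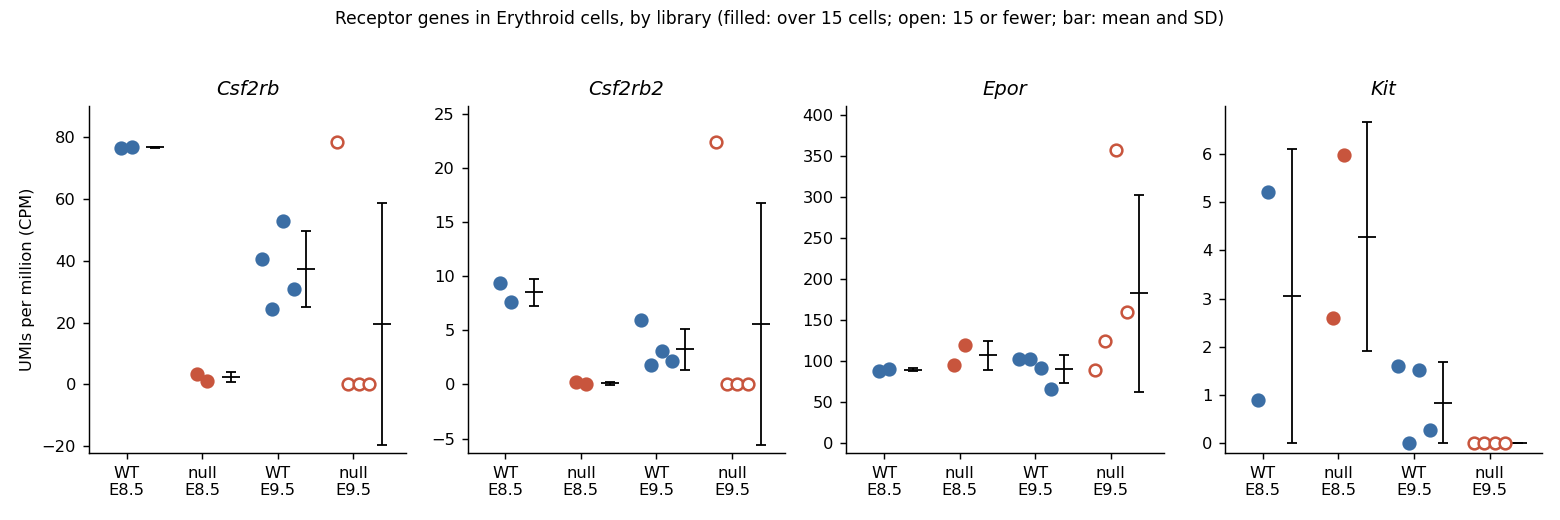
Level of each receptor gene in Erythroid cells (CPM, linear axes that differ between panels) for every library of E8.5 and E9.5, with WT in blue and null in red. The *Csf2rb* and *Csf2rb2* points of E8.5 null cells lie near 0, below all WT points of that stage, while those of *Epor* lie slightly above WT. Black bars are mean and SD. Open points are libraries with at most 15 cells, which include every null library of E9.5.

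The same counts can be read as shares of cells, which is no further evidence. With each cell thinned to 10000 UMIs, *Csf2rb* was detected in 35.0% and 34.7% of the Erythroid cells of WT A and B at E8.5, and in 2.36% and 1.53% of those of null A and B. Over both libraries the shares were 34.8% of 1048 WT cells (exact binomial 95% interval 31.9 to 37.8) and 2.21% of 725 null cells (1.27 to 3.56). *Csf2rb2* was detected in 5.25% of WT and 0.276% of null cells. *Epor* was found in 56.7% of WT and 63.4% of null cells, and *Kit* in 3.53% and 2.62%. The order of *Kit* turned without thinning (8.59% in WT, 11.2% in null cells), and its mean level was also higher in null cells (3.05 and 4.28 CPM). Neural cell types, which should lack the beta chain, gave the background. There *Csf2rb* was in 0.505% of 1189 WT cells and in 0 of 1020 null cells, a count that allows at most 0.294%. *Kit* was in 19.7% of WT neural cells, since some of these types express it, so they are no background for *Kit*, and its share in Erythroid cells lay below theirs. Median depths were 31385 UMIs in WT and 40755 in null Erythroid cells, and 20222 and 26607 in the neural cells. Intervals and limits cover counting error only.

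Null-sorted Erythroid cells of E8.5 were also split by whether they held a tdTomato UMI. In null A, 414 cells with one gave 58 *Csf2rb* UMIs (3.31 CPM) and 180 cells without gave 29 (4.11 CPM). In null B the counts were 1 in 49 cells and 5 in 82. Of the 87 UMIs of null A, 17 and 10 came from 2 cells, both with a tdTomato UMI. The first held 2048 UMIs of the embryonic globin *Hba-x* and the second 1760. *Epor* gave 2 and 0 UMIs in these cells. Over all cell types, 104 of 6369 WT and 2 of 4979 null cells of E8.5 held 10 or more UMIs of the beta chain genes. At E9.5, 23 of 11579 WT and 4 of 9876 null cells did. Among Erythroid cells of E9.5 these were 8 of 164, 2 of 38 and 3 of 135 cells in WT A, C and D, and 1 of 9 in null A.

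The labelled cell type held its markers. The 7 Erythroid markers, which include 3 globins, were all detected in every E8.5 library, and summed to 128001 to 204937 CPM in WT and 91615 to 188383 CPM in null cells. The 5 EMP and myeloid markers summed to 2.53 to 5.32 CPM in WT and 6.79 to 16.3 CPM in null cells, mostly *Myb* (18 and 49 UMIs in WT, 120 and 69 in null cells), while *Ptprc* gave at most 1 UMI in any of the 4 libraries. Sums of the Blood progenitor list were also higher in null cells (226 to 308 CPM in WT, 319.9 to 399 in null), as were those of the Haematoendothelial progenitor list (202 to 253 and 282 to 322). Those of the neural list were lower (6.70 to 17.7 and 4.76 to 4.97). Their part in the *Csf2rb* difference was not tested. Mast cell and basophil markers summed to at most 0.106 CPM. The globins take a share of all UMIs that differs between libraries, and thereby lowers the CPM of other genes. They were left out of the tests, whose scale factors were fitted over the remaining genes.

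At E9.5 too few null Erythroid cells were left for a comparison. The WT libraries A to D held 164, 43, 38 and 135 such cells, and *Csf2rb* gave 204, 27, 69 and 115 UMIs in them (40.6, 24.5, 52.7 and 30.9 CPM). The null libraries A to D held 9, 2, 2 and 6 Erythroid cells, with 14, 0, 0 and 0 UMIs. Null A was thus at 78.3 CPM, above every WT library and against the order of E8.5. The 14 UMIs came from 2 cells, one of which held 9 of them beside 14 UMIs of *Spi1*, the gene of a myeloid transcription factor, 1373 of *Hba-x*, 2 of *Gata1* and 0 of *Ptprc*. A count of 0 in libraries B, C and D allows up to 37.3, 76.7 and 18.5 CPM, so the depth of B and C could not show a difference from WT. *Csf2rb2* also gave UMIs in null A alone, 4 of them (22.4 CPM), above the WT range of 1.82 to 5.98 CPM, and 0 in the other null libraries. *Epor* gave 16, 10, 14 and 26 UMIs in the null libraries (89.5, 124.5, 358.1 and 160.0 CPM), and *Kit* gave 0 in each. At E7.5, only null library A held enough Erythroid cells to read (17 cells, with 0 UMIs of *Csf2rb*, 45 of *Epor* and 13 of *Kit*).

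Erythroid cells, Blood progenitors and Haematoendothelial progenitors were then ordered along the first principal component of 1000 variable genes, without the 4 members and the pathway list, and split into 5 bins of equal width. Bin 1 was read at E7.5 and bins 2 to 4 at E8.5, from other libraries, so a change from bin 1 to bin 2 cannot be told apart from a change of stage. In WT cells pooled over libraries, *Kit* was highest in bin 1, *Epor* was higher in bins 2 to 4 than in bin 1, and *Csf2rb* was highest in bin 3. The fall of *Csf2rb* after bin 3 was that of WT A of E8.5, at 103.5 in bin 3 and 62.0 in bin 4. WT B of E8.5 was at 84.9 and 85.4 in these bins. In bin 1 at E7.5, thinned *Csf2rb* levels were 0.498 CPM in 201 WT cells and 0.727 in 275 null cells. *Epor* was already at 37.8 and 37.1, and *Kit* at 24.9 and 22.5. *Csf2rb* was thus near 0 in both genotypes at this point.

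In bins 2, 3 and 4 of E8.5, WT cells held *Csf2rb* at 38.4, 89.5 and 65.4 CPM, and null cells at 1.79, 2.34 and 8.16. These bins split the values that chose the genes and pool cells over libraries. Bin 2 held 143 of 146 WT cells from library B and 42 of 56 null cells from library B. Bin 4 held 276 of 324 WT cells and 241 of 245 null cells from library A. *Csf2rb2* was at 8.90, 6.12 and 12.3 in WT and at 0, 0 and 1.22 in null cells. *Epor* was at 87.7, 91.5 and 88.3 in WT and between 98.4 and 104.0 in null cells. *Kit* fell along the bins in both, from 15.8 to 2.04 and 0.309 in WT and from 16.1 to 5.15 and 0.816 in null cells. In WT cells of E9.5, *Csf2rb* stood at 51.9 and 45.2 in bins 4 and 5. With 4 bins of equal WT cell number, the last held 45 null cells of E8.5 and a level of 40.0, which came from 18 UMIs in 2 cells, beside 44.0 in 91 WT cells. *Csf2rb2* was at 6.67 in null and 6.59 in WT cells of that bin.

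**Figure D2:**
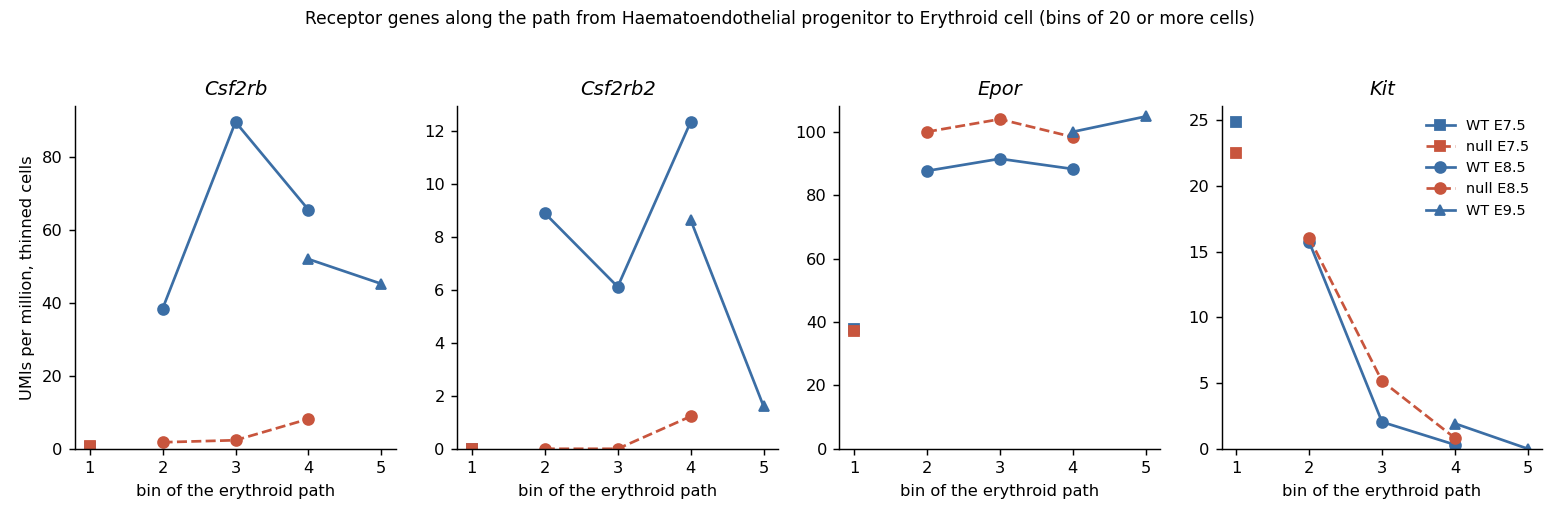
Level of each receptor gene (CPM in cells thinned to 10000 UMIs, vertical axis) against the bin of the erythroid path, for bins with at least 20 cells, with WT as solid blue and null as dashed red lines and a marker for each stage. *Csf2rb* of E8.5 reaches 89.5 in WT and at most 8.16 in null cells, while null *Epor* lies above WT in the bins of E8.5, not in that of E7.5, and both *Kit* lines fall along the bins.

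Before the Erythroid stage the erythropoietin receptor did not separate the genotypes. In Blood progenitors of E7.5, *Epor* gave 109 and 116 UMIs (59.3 and 47.4 CPM) in WT A and B and 378 and 67 (49.0 and 54.6 CPM) in null A and B. The groups overlapped, with a log2 fold change, null over WT, of -0.02 (SE 0.172, edgeR adjusted p = 0.997). *Kit* gave 42 and 69 UMIs (22.8 and 28.2 CPM) in WT and 145 and 22 (18.8 and 17.9 CPM) in null cells. It lay lower in both null libraries but did not pass the test (log2 fold change -0.43, SE 0.225, edgeR adjusted p = 0.988). Of 8194 genes tested there, 0.342% were called, which means an adjusted p under 0.05 with an absolute log2 fold change over 1. *Csf2rb* was too low to test in these cells, at 4 and 5 UMIs in WT and 10 and 1 in null libraries.

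In EMP of E9.5, a population that the choice of genes did not use, *Csf2rb* was again lower in null cells. WT libraries A to D held 48, 30, 22 and 50 EMP cells and 131, 30, 38 and 60 UMIs of *Csf2rb* (54.3, 23.7, 28.1 and 31.3 CPM). Null libraries A to D held 71, 8, 14 and 20 cells and 16, 0, 10 and 3 UMIs (5.47, 0, 12.9 and 2.51 CPM). The highest null library was under the lowest WT library, as for 3.73% of genes, with 2.5% of genes the other way. The 10 UMIs of null C came from 1 cell, whereas in WT the UMIs were spread over 35, 15, 12 and 24 cells of the libraries. With cells thinned to 10000 UMIs, 24.0% of 150 WT EMP (exact binomial 95% interval 17.4 to 31.6) and 5.31% of 113 null EMP (1.97 to 11.2) held a *Csf2rb* UMI, at median depths of 43446.5 and 46027 UMIs.

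The fit used the 4 WT libraries and null A and D, which hold more than 15 cells. *Csf2rb* fell by 2.95 on the log2 scale (SE 0.436, edgeR adjusted p = 0.0326), 1 of the 0.182% of 8771 genes called. Over all 8 libraries the levels were 34.3 ± 13.7 against 5.23 ± 5.59 CPM (n = 4 each). The labels number the replicates of each stage and genotype, and by the study's account each embryo pool gave 1 sample of each genotype. No library could be tied to a label or a pool, so the fit has no term for the pool. An exact two-sided permutation test was chosen after seeing the data, within 4 blocks of 1 WT and 1 null library. This permutation test gave p = 0.125 under each of the 24 ways to pair the libraries. That is the smallest p that 4 blocks allow, so the test cannot pass 0.05. By the study's account 2 embryos of E9.5 were used, so the 4 libraries of a genotype cannot be 4 separate embryos. The fit and the permutation test treat them as separate, so their p-values measure technical spread in part. The call was lost under limma-voom (adjusted p = 0.235) and, at an unchanged direction, without null A or without null D (edgeR adjusted p = 0.102 each), fits with 1 null library, which is assumed to vary like the WT libraries. It held without the barcodes shared by WT C and D (edgeR adjusted p = 0.0227).

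*Kit* did not pass the test in EMP, and *Csf2rb2* and *Epor* were too low for the fit. *Kit* gave 52.7, 43.4, 31.8 and 53.2 CPM in WT and 30.1, 23.9, 33.6 and 41.9 CPM in null libraries, with overlapping groups (log2 fold change -0.38, SE 0.235, edgeR adjusted p = 0.757). *Csf2rb2* was at 10 UMIs over all WT EMP and *Epor* at 22. Over all 8 libraries *Csf2rb2* showed no difference in mean beyond its spread, at 1.44 ± 0.274 CPM in WT and 1.46 ± 2.49 in null cells (exact permutation p within blocks = 1 under every pairing). Of the 6 null UMIs, 4 came from 1 cell of null C, which also held 10 *Csf2rb* UMIs. The fitted null libraries were at 0.342 ± 0.484 CPM, so the equal means rest on few counts. *Epor* was at 2.75 ± 1.93 and 3.54 ± 3.74 CPM, with an exact permutation p of 0.625 to 1 over the pairings, and that of *Kit* was 0.125 to 0.375. In the fitted libraries the EMP and myeloid markers summed to 434 to 693 CPM in WT and 526.3 to 618 CPM in null cells. Those of the Erythroid list ranged from 240.5 to 951 CPM in WT and from 88.0 to 1465 CPM in null cells. Sums of the endothelial list did not overlap (28.8 to 37.7 CPM in WT, 25.98 to 25.99 in null cells), nor did those of the germ cell list (2.61 to 4.15 and 1.68 to 2.05). Their part in the *Csf2rb* difference was not tested.

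MEP and Megakaryocyte progenitors gave values without a test, for want of cells. In MEP of E8.5, the authors' label for megakaryocyte-erythroid progenitors, *Csf2rb* gave 83 UMIs in 8 cells (265.4 CPM) and 70 in 14 cells (210.4 CPM) in WT A and B, the highest levels of any E8.5 type named here. Null A gave 4 UMIs in 23 cells (5.85 CPM) and null B 4 in 3 cells (40.9 CPM). *Epor* was at 51.2 and 63.1 CPM in WT and 70.2 and 102.3 CPM in null MEP. In Megakaryocyte progenitors of E9.5 all 48 WT UMIs of *Csf2rb* came from library B, and 25 of the 28 null UMIs from library A, so this type showed no constant level in either genotype. In null A, 12 and 11 of these UMIs lay in 2 cells that also held 6 and 17 UMIs of *Spi1* and 4 and 13 of *Ptprc*. In EMP of E8.5 the counts were 19 and 0 in WT and 7 and 0 in null libraries, too few to compare.

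**Figure D3:**
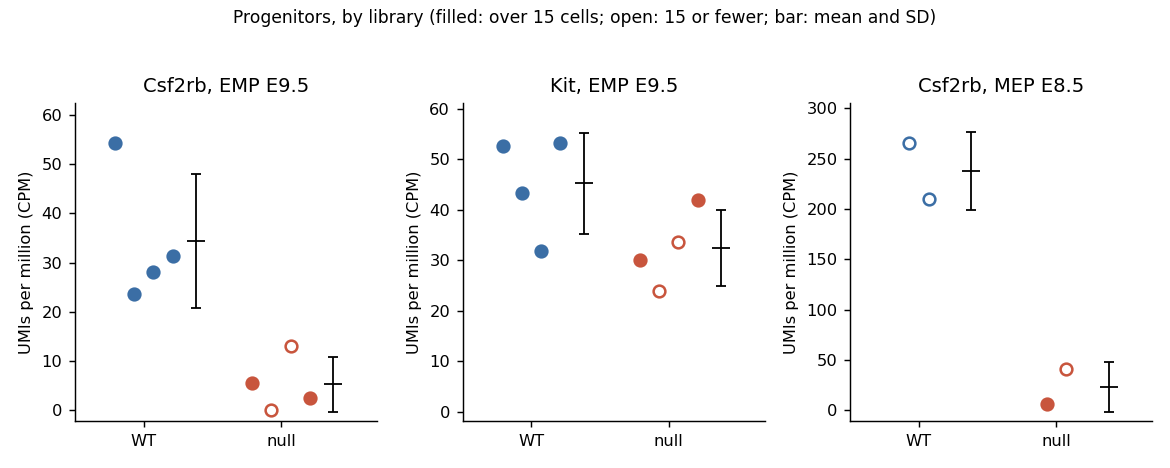
*Csf2rb* in EMP of E9.5, *Kit* in EMP of E9.5 and *Csf2rb* in MEP of E8.5 (CPM, linear axes that differ between panels) by library, WT in blue and null in red, with mean and SD at the side. The *Csf2rb* points of the null EMP libraries (0 to 12.9) all lie below those of WT (23.7 to 54.3), whereas the *Kit* points overlap. Open points are libraries with at most 15 cells.

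In WT cells of E8.5 and E9.5, most UMIs of *Csf2rb*, *Csf2rb2* and *Epor* came from blood types, while those of *Kit* were spread over many tissues. Such shares also depend on how many cells each type had. At E8.5, Erythroid cells held 90.6% of all WT *Csf2rb* UMIs, 89.6% of *Csf2rb2* and 89.5% of *Epor*. At E9.5 these shares were 47.1%, 35.2% and 66.1%, and EMP held 29.4% of the *Csf2rb* UMIs. The type with the most *Kit* UMIs, Pharyngeal endoderm, held 9.16% of them at E8.5. Over the 36 WT types of E8.5 with enough cells, the median level was 0.583 CPM for *Csf2rb*, 0 for *Csf2rb2*, 1.53 for *Epor* and 13.1 for *Kit*.

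Ranks were taken among types with over 15 cells in at least 2 libraries of a group. This left out MEP and, in WT cells, Haematoendothelial progenitors of E7.5 (26 *Epor* UMIs). At E8.5 it also left out WT Chorioallantoic-derived erythroid progenitors (21 *Csf2rb* UMIs) and Megakaryocyte progenitors (12). Among the ranked types of E8.5, *Csf2rb* was highest in WT Erythroid cells (76.6 CPM), and the next, EMP (9.86 ± 13.9 CPM), lay apart from it. At E9.5, Megakaryocyte progenitors (53.1 ± 75.1), Erythroid (37.2 ± 12.3) and EMP (34.3 ± 13.7) overlapped. *Epor* led in Blood progenitors at E7.5 (53.3 ± 8.37), where the next ranked type, Mesenchyme, was at 4.32 ± 0.126, and in Erythroid cells at E8.5 (89.6 ± 1.71) and E9.5 (90.9 ± 17.2). Its second type at E9.5 was Megakaryocyte progenitors (30.4 ± 6.998), which lay apart from both neighbours in the order.

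Among the same ranked types, *Kit* had its highest level in WT EMP of E8.5 (99.7 and 107.1 CPM in libraries A and B), followed by Venous endothelium (78.5 and 71.3) and Pharyngeal endoderm (48.0 and 60.9). The first 3 types lay apart from each other, and Pharyngeal endoderm overlapped with Foregut (47.8 ± 14.0). Placodal ectoderm (38.2 ± 4.30) came next. At E9.5 the order was EMP (45.3 ± 10.0), Pharyngeal endoderm (43.4 ± 9.23), Placodal ectoderm (39.4 ± 3.97), Venous endothelium (32.8 ± 5.60) and Thyroid primordium (29.8 ± 24.5), and each overlapped with the next. At E7.5, Gut tube (27.7 ± 4.15), Blood progenitors (25.5 ± 3.80) and Lateral plate mesoderm (22.6 ± 14.8) led, with Visceral endoderm (20.4 ± 3.20) and Mesenchyme (17.1 ± 0.984) behind. Blood was thus 1 of several tissues with *Kit*.

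**Figure D4:**
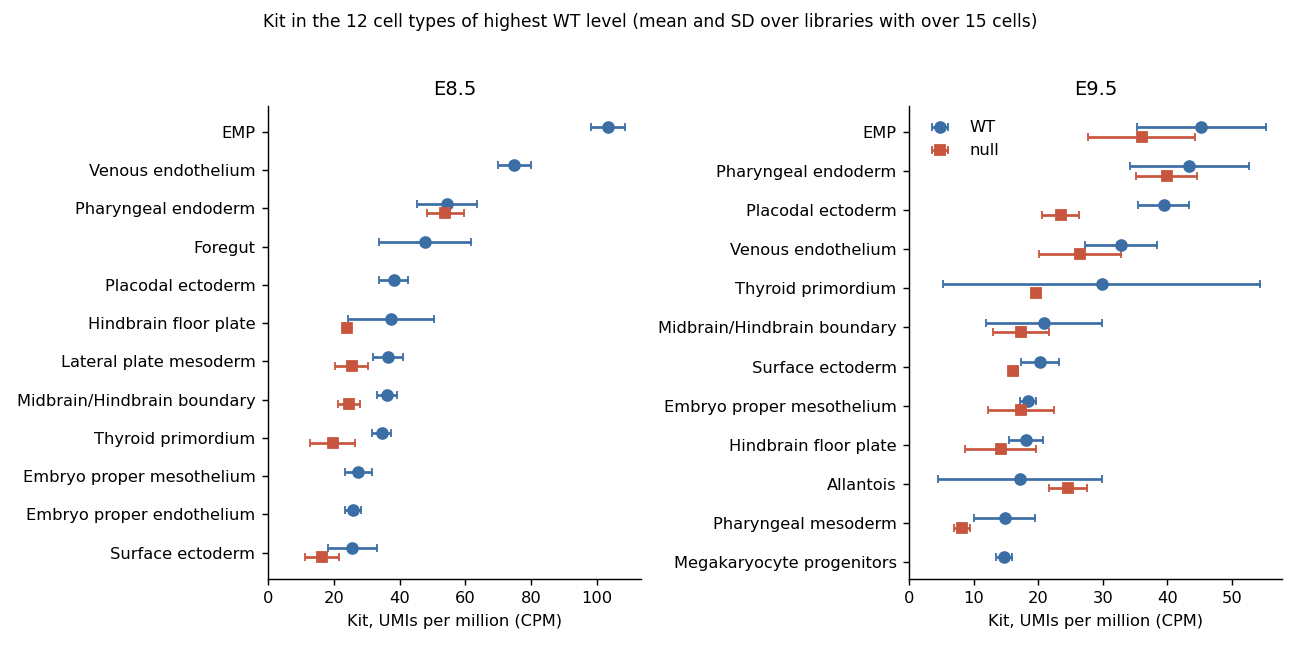
*Kit* level (CPM, mean and SD over libraries with more than 15 cells) in the 12 types of highest WT level at E8.5 and at E9.5, with WT as blue circles and null as red squares. EMP leads both panels, at 103.4 in WT of E8.5 and 45.3 in WT of E9.5, and most null means lie below the WT means. A missing square is a type with too few null cells, and each point rests on at least 2 libraries.

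Between genotypes outside Erythroid cells, *Kit* had 46 tests, each of 1 type at 1 stage, and was called in 0, under edgeR. A type can count at more than 1 stage. The fold change was below 0 in 37 tests and above 0 in 9, with a median of -0.35 on the log2 scale, and 6 had an unadjusted p under 0.05. No share of all genes below 0 is given beside these counts. Tests of a stage share libraries, so the *Kit* tests are not separate results. The smallest adjusted p was 0.506, in Placodal ectoderm of E9.5 (log2 fold change -0.81, SE 0.294), where WT A and D were at 42.2 and 36.6 CPM and null A and B at 21.4 and 25.5. *Epor* had 4 such tests and was called in 0. Outside Erythroid cells, *Csf2rb* could be tested only in EMP. Over all types, the background of calls between genotypes was 0.186% of tests at E7.5, 0.0609% at E8.5 and 0.12% at E9.5. An unadjusted edgeR p under 0.05 was found for 422 of 8194 genes in Blood progenitors of E7.5 and 669 of 8771 in EMP of E9.5.

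*Kit* fell between E8.5 and E9.5 in several WT tissues. It was called lower in 5 of 21 WT types and higher in 0, against 3.19% of all tests of that contrast, with a median log2 fold change of -0.62. In EMP it went from 99.7 and 107.1 CPM to the 4 values between 31.8 and 53.2 given above, groups that lay apart (log2 fold change -1.26, SE 0.204, edgeR adjusted p = 0.00739, 0.65% of genes called). Without E8.5 WT A or B this call was lost (edgeR adjusted p = 0.116 and 0.0744). In Venous endothelium it went from 78.5 and 71.3 CPM to 33.0, 38.3 and 27.1 CPM in WT B, C and D of E9.5 (-1.31, SE 0.246, edgeR adjusted p = 0.00144, 1.1% of genes called). The other calls were in Dorsal spinal cord progenitors (-1.02), Hindbrain floor plate (-1.20) and Spinal cord progenitors (-1.46). Each of these was lost when E8.5 WT A or E8.5 WT B was left out, with a log2 fold change of -0.90 without A for the first, and edgeR adjusted p of 0.331 and 0.157 without B for the others. The first was also lost without E9.5 WT C (log2 fold change -0.97) and the third without E9.5 WT D (edgeR adjusted p = 0.0679) and under DESeq2 (adjusted p = 0.168). All 5 calls held without the barcodes shared by WT C and D.

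In null cells the same contrast called *Kit* lower in Limb mesoderm (-1.21, SE 0.311, edgeR adjusted p = 0.0217) and Ventral hindbrain progenitors (-1.10, SE 0.286, edgeR adjusted p = 0.0140), 2 of 15 types, against 2.88% of tests. Both were lost without E8.5 null A (edgeR adjusted p = 0.534 and 0.364). EMP and Venous endothelium had too few null cells at E8.5 to be tested. From E7.5 to E8.5, WT Mesenchyme fell by 1.00 (SE 0.294, edgeR adjusted p = 0.0243), 1 of 2 types tested beside 8.55% of tests. Null Lateral plate mesoderm rose by 1.29 (SE 0.265, edgeR adjusted p = 0.00873), 1 of 2 types beside 6.9% of tests. The first was lost without E8.5 WT A (edgeR adjusted p = 0.207), without E7.5 WT B (log2 fold change -0.96) and under DESeq2 (adjusted p = 0.232), and the second without E7.5 null A, E7.5 null B or E8.5 null A (edgeR adjusted p = 0.112, 0.108 and 0.0957) and under DESeq2 (adjusted p = 0.0721). The differences between the genotypes in these changes were not tested.

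Between E8.5 and E9.5 in WT Erythroid cells, levels of *Csf2rb* and *Csf2rb2* were lower at the later stage. The E8.5 libraries are those of the contrast that chose the genes, so the changes of *Csf2rb* and *Csf2rb2* are a description with no test. *Csf2rb* was at 76.5 and 76.6 CPM at E8.5 and between 24.5 and 52.7 CPM at E9.5 (log2 fold change -0.85). *Csf2rb2* was at 9.39 and 7.58 CPM and then between 1.82 and 5.98 CPM (-0.98). *Epor* was at 102.8, 102.6, 91.6 and 66.3 CPM in WT A to D of E9.5 (0.20, SE 0.153, edgeR adjusted p = 0.388, and 0.438 without the shared barcodes). In this contrast 5.51% of genes were called, and 20.2% had an adjusted p under 0.05 alone. Erythroid markers, globins included, summed to 270606 to 304818 CPM at E9.5 against 128001 to 204937 at E8.5. Globin UMIs count in the total behind each CPM, and globin genes were left out of the fit.

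The genes of most similar pattern were sought over 93 WT means of a cell type and stage, among 11819 genes (Pearson r of log2(CPM + 1), a description, since the means of a stage share libraries). For *Csf2rb* they were *Nmnat3* (0.85), *Nfe2* (0.83), *Treml2* (0.83), *Ncf4* (0.82) and *Csf2rb2* (0.82). For *Csf2rb2* they were *Trim58* (0.94), *Ache* (0.86), *Grap2* (0.85), *AL513022.1* (0.84) and *Gp9* (0.83). For *Epor* they included *Blvrb* (0.81), *Cpox* (0.78), which encodes an enzyme of haem synthesis, *Epb42* (0.76) and *Gfi1b* (0.75). For *Kit* the values were lower, from *Mmp15* (0.58) to *Frat2* (0.50), and *Kit* had r = -0.18 with *Epor* and -0.11 with *Csf2rb*.

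The receptors signal through kinases and STATs to target genes, and 53 such genes were listed as ligands and partner chains, other cytokine receptors, kinases and STATs, adaptors, and targets. In Blood progenitors of E7.5, 28 of them were tested, with 0 called higher and 3 lower, and a median log2 fold change of -0.15 against 0.00 over all genes. Of all 8194 genes tested there, 0.342% were called, 12 higher and 16 lower. The 3 list genes called were STAT genes. *Stat3* itself, the gene disrupted in the donor cells, gave 56 and 76 UMIs in WT and 27 and 7 in null libraries (30.4, 31.1, 3.50 and 5.71 CPM). The replaced exons are internal and these libraries read the 3′ end, so the UMIs that remain in null cells do not check the deletion.

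*Stat5a* gave 35 and 37 UMIs in WT Blood progenitors and 8 and 0 in null (19.0, 15.1, 1.04 and 0 CPM), and *Stat5b* 65 and 81 against 78 and 18 (35.3, 33.1, 10.1 and 14.7 CPM). Both pairs of groups lay apart. *Stat5a* fell by 4.17 (SE 0.488, edgeR adjusted p = 8.1e-05) and *Stat5b* by 1.58 (SE 0.241, edgeR adjusted p = 0.00136, and 0.183 without null A). These 2 genes encode the STATs of the *Epor* and beta chain receptors and are neighbours of *Stat3* on chromosome 11. *Stat5b* lies at chr11:100780731-100850724 (minus strand), *Stat5a* at chr11:100859351-100885169 (plus) and *Stat3* at chr11:100885098-100939540 (minus). *Stat5a* and *Stat3* overlap by 72 bases at their 3′ ends. Over the tests of a type at a stage, *Stat5a* was lower in 3 of 3 and *Stat5b* in 28 of 34, and each was called in 1. Over all genes and types, 0.186% of tests were called at E7.5, 0.0609% at E8.5 and 0.12% at E9.5. Tests of a stage share libraries, so these counts are not of separate results.

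In Erythroid cells of E8.5, 41 of the 53 genes were tested, with 0 called higher and 1 lower, a median of -0.03 against 0.01 over all genes. Of all 10143 genes tested there, 0.0887% were called, 2 higher and 7 lower. The 1 list gene called was *Pim1*, a kinase gene induced by STATs. It was at 269.9 and 259.4 CPM in WT and 99.9 and 92.0 CPM in null libraries (-1.51, SE 0.161, edgeR adjusted p = 0.0361). Its call was lost under limma-voom (adjusted p = 0.0635) and without WT A (edgeR adjusted p = 0.0642). *Cish*, a feedback gene of STAT5, was at 8.55 and 5.56 CPM in WT and 1.22 and 0.994 CPM in null cells (-2.63, SE 0.403) and did not pass the test (edgeR adjusted p = 0.0773). *Stat5b* (-1.38, edgeR adjusted p = 0.0757), *Stat5a* (-2.23, 0.0795) and *Stat3* (-1.93, 0.194) did not pass it either. Nor did *Pik3r1*, a subunit gene of PI3-kinase (0.97, edgeR adjusted p = 0.103), and the phosphatase gene *Inpp5d* (2.88, 0.252), whose values were higher in null cells. *Jak2*, the kinase of these receptors, had a log2 fold change of 0.15 (SE 0.247). By role, the median log2 fold change in these cells was -0.91 for 14 tested targets and between -0.44 and 0.08 for the other roles. The targets had medians of -0.07 in Blood progenitors of E7.5 and -0.05 in EMP of E9.5, over 10 tested genes each. These medians carry no test. This list and its values were partly known when the genes were chosen.

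In EMP of E9.5, 40 of the list were tested, with 1 called higher and 2 lower, a median of 0.01 against 0.00 over all genes. Of all 8771 genes tested there, 0.182% were called, 8 higher and 8 lower. *Pim1* was at 166.7, 227.1, 141.3 and 230.9 CPM in WT A to D and at 46.5 and 59.5 CPM in null A and D (-1.88, SE 0.259, edgeR adjusted p = 0.0470). *Stat3* fell by 2.10 (SE 0.285, edgeR adjusted p = 0.0124). *Ccnd1*, which encodes cyclin D1, rose by 1.69 (SE 0.240, edgeR adjusted p = 0.0369), from 48.5, 43.4, 25.9 and 37.0 CPM to 154.2 and 93.0. *Pim1* lost its call without WT A, WT B, null A or null D (edgeR adjusted p = 0.0686, 0.0856, 0.198 and 0.108) and without the shared barcodes (0.0583), *Ccnd1* without WT A, WT B, WT D or null A (0.0562, 0.133, 0.123 and 0.0656), and *Stat3* without WT A or null A (0.0525 and 0.0726), each at an unchanged direction. Without the shared barcodes *Ccnd1* and *Stat3* kept their calls (edgeR adjusted p = 0.0296 and 0.0164). In Erythroid cells of E8.5 *Ccnd1* was lower in null libraries (3.99 and 2.19 CPM) than in WT (6.65 and 12.2 CPM) and did not pass the test (-1.43, edgeR adjusted p = 0.252). *Stat5a* (-0.41, SE 0.469) and *Stat5b* (-0.44, SE 0.295) did not pass the test in EMP. The partner alpha chains, *Csf2ra* (0.03, SE 0.293) and *Il3ra* (-0.04, SE 0.365), did not either. Over 64 tests of a type at a stage, *Pim1* was lower in 30 and called in 2, both of them in blood types. Over all genes and types, 0.0609% of tests were called at E8.5 and 0.12% at E9.5.

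**Figure D5:**
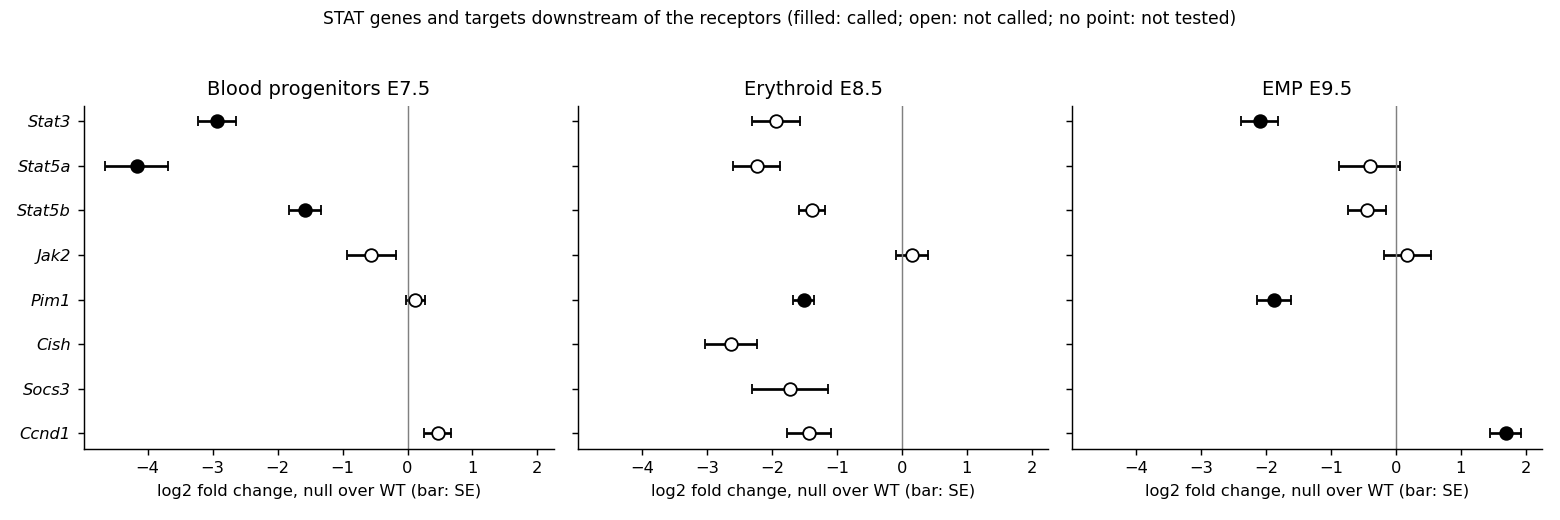
Log2 fold change of null over WT (horizontal axis, bar SE) for STAT genes, *Jak2* and target genes in Blood progenitors of E7.5, Erythroid cells of E8.5 and EMP of E9.5. Filled points were called. *Pim1* is called in Erythroid cells (-1.51) and EMP (-1.88), *Stat5a* and *Stat5b* in Blood progenitors (-4.17 and -1.58), and a gene without a point was not tested.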

How the data were processed

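The authors mapped reads to mm10 with Cell Ranger, counted UMIs with an annotation to which tdTomato had been added, and deposited raw counts per gene and cell. Their deposited table of cells gave the percent of mitochondrial UMIs, a doublet call and the cell type mapped from an atlas of mouse gastrulation. These were used as deposited. Left out were 3395 called doublets and, of the cells sorted as WT, the 596 that held a tdTomato UMI. Each cell's library carried a stage and a sort gate in the authors' table of cells, but no embryo pool. 0 columns of per-sample values were left without a sample or group, but the libraries matched groups only and no sample title.

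UMIs were summed per library and cell type with more than 15 cells, and tested with edgeR 4.0.16 (quasi-likelihood, robust, filterByExpr, TMM; R 4.3.3) for types with at least 2 such libraries in each group. DESeq2 1.42.0 and limma-voom (limma 3.58.1) served as alternatives. Of 29453 genes, 8178 were left out by name, after the study's filter but without its step for imprinted genes (tdTomato, *Xist*, *Tsix*, Y-linked, haemoglobin, ribosomal, mitochondrial and predicted genes). A call needs an absolute log2 fold change over 1 with a Benjamini-Hochberg adjusted p under 0.05, adjusted per cell type. The scripts were tested on simulated data. Libraries were taken as replicates, and where they share embryos the p-values measure technical spread in part.

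Shares were computed on cells thinned to 10000 UMIs, with exact (Clopper-Pearson) 95% intervals, and a count of 0 was given a limit of 3 counts. Named were the 4 members, the blood types, the endothelial types, the types of highest WT level, the types in which a member was called, and called genes of the pathway list. Pathway genes named without a call were chosen after their values were seen. Where leaving out 1 library left a group with 1, that library was assumed to vary like the other group. Some values of single genes are not reported here. The members, the lists and the named types were chosen with earlier results of these data known. The alternative without shared barcodes and the permutation test within blocks in EMP were chosen after seeing the data.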

Additional observations from a re-analysis of the deposited data

Results flagged for a closer look

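*Kit* in Ventral hindbrain progenitors of E9.5 stood out by 1 null library. Null D was at 15.9 CPM, while null A, B and C were at 8.2, 7.5 and 7.7, and the gap to the next library was 0.914 of the whole range, above Dixon's critical value of 0.829. It was 1 flag among 65 groups of 4 libraries, where chance flags about 1 in 20 groups.

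*Kit* in Spinal cord progenitors lay on opposite sides of WT at the last 2 stages. Null minus WT was -6.70 CPM at E8.5, with both null libraries (15.9 and 13.5 CPM) below both WT libraries (18.3 and 24.4). It was 4.60 CPM at E9.5, with null A, B and D (13.2, 15.4 and 12.9 CPM) above WT A, B and D (11.025, 10.5 and 6.2). The difference between the stages was not tested.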

How the results depend on the processing

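No paired analysis was possible because the library names match no sample title, so no library carries a replicate number of the labels and no block could be fitted. The fall of *Csf2rb* in EMP of E9.5 kept its direction under every alternative run. It ranged from -3.72 to -2.63 with 1 library left out, missed the threshold without null A or null D, and missed it under limma-voom (-2.89). The WT change of *Csf2rb* in Erythroid cells, -0.85, is a description, since its E8.5 values chose the gene. The fall of *Kit* in null Ventral hindbrain progenitors ranged from -1.42 to -0.79 with 1 library left out. In Erythroid cells of E8.5, 1 pathway gene was called, against 5 under DESeq2, 0 under limma-voom, 7 without the filter on low counts, 4 with null cells that held a tdTomato UMI, and 0 to 2 with 1 library left out.

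Over all genes the calls in these cells went from 9 to 82 under DESeq2, 2 under limma-voom, 141 without the filter, 44 with tdTomato UMIs required, and 3 to 36 with 1 library left out. In EMP they went from 16 to 32 under DESeq2, 70 without the filter and 8 to 35 with 1 library left out, and in Blood progenitors from 28 to 51 without the filter. Calls of a member between WT stages were 6, against 11 without a fold change threshold, 11 without the filter and 2 with over 50 cells per library. Of the 11, 2 without the threshold (*Csf2rb* and *Csf2rb2*) and 1 without the filter (*Csf2rb2*) were in Erythroid cells, whose values chose the genes, and are not read as calls. Those between null stages were 3, against 5 and, with over 50 cells, 0. Calls between genotypes outside Erythroid cells were 1, against 0 under limma-voom. The setting of over 50 cells cannot check this call. The WT EMP libraries of E9.5 held 48, 30, 22 and 50 cells, so EMP had no fit there. WT EMP and Venous endothelium of E8.5, with 48 and 49 cells over both libraries, had no such fit either.

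Without thinning, shares of E8.5 Erythroid cells with a UMI rose to 49.9% (WT) and 6.21% (null) for *Csf2rb*, 91.7% and 96.7% for *Epor*, and 8.59% and 11.2% for *Kit*, which reverses the order of *Kit*. *Csf2rb2* went to 13.0% in WT. The highest null level of *Csf2rb* on the erythroid path went from 8.16 to 40.0 with 4 bins of equal WT cell number. Cell number limits the null Erythroid cells of E9.5 (19 in all), and 2 libraries per group limit E7.5 and E8.5.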
